A study of Rattus norvegicus with 8 samples.

Results

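Cilium and flagellum genes were followed in the kidney cortex of rats of both sexes. A gene was included when its symbol began with Cfap, Dnah, Dnai, Ift or Bbs followed by a number, or was Pkd1, Pkd2, Pkhd1, Foxj1 or Rfx3, and when a probe carried its RefSeq accession. Of 99 such genes in the RefSeq gene table, 53 had a probe (57 probes in all), among 14737 genes named on the array. The probe with the highest mean signal stood for each gene. The 53 genes were divided by textbook role. There were 26 genes of the motile cilium or flagellum, 21 of the primary cilium and its transport, and 6 Cfap genes of both or of another site. The 21, called primary cilium genes here, were all Ift or Bbs genes. Since intraflagellar transport also assembles motile cilia, this group is not particular to the primary cilium. No probe was named for Pkd1, Pkd2, Pkhd1 or Rfx3, nor for any Dnah gene other than Dnah1, and these genes were not analysed here.

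The 8 samples came from 4 adult female and 4 adult male rats of the strain RCCHanTMWIST, an outbred Han Wistar stock. No animal was treated. Each sample was 1 slice of kidney cortex, a mixture of tubule, glomerular, vascular and other cells, so that fewer cells of a type and less RNA per cell cannot be told apart. RNA was labelled with Cy3 and hybridised to 1 array per rat, all on 1 slide. Signals are given on the log2 scale with the 75th percentile of each array set to 0, so that 0 is the level of a fairly bright spot and negative values lie below it. A probe was called well above background where the scanner software marked more than 50% of its spots so. It was tested when this held on at least 4 of 8 arrays, and differences are male minus female.

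The arrays were alike in quality, with 73.8% to 79.1% of probes well above background, no saturated spot, and correlations of 0.992 to 0.995 within a sex and 0.984 to 0.991 between the sexes. All 10 proximal tubule markers, all 5 podocyte markers and all 3 named markers of the thick ascending limb were well above background, while Slc14a2 and Nos1 of the inner medulla were at background on every array. Several marker lists differed between the sexes. The summed level of the 3 thick ascending limb markers was 57.7 to 65.3 times the 75th percentile in females and 47.5 to 55.3 times in males, and that of the 5 podocyte markers was 12.2 to 13 against 10.5 to 11. For the 3 inner medulla markers the sums, nearly all from Aqp4, were 0.57 to 0.861 against 0.197 to 0.414. The part of these cell types in the differences below was not tested.

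Cilia are built around a ring of doublet microtubules, the axoneme. The motile form beats by means of dynein arms, radial spokes and proteins lining the inside of the doublets, and it is best known from airway, oviduct and ependymal cells and, as the flagellum, from sperm. The primary cilium lacks dynein arms and serves as an antenna, 1 on most tubule cells of the kidney, and its defects cause cystic kidney disease. Both forms are assembled by intraflagellar transport, in which IFT-B trains move cargo outward and IFT-A trains return it, and the BBSome, a complex of Bardet-Biedl syndrome proteins, carries membrane proteins along. Foxj1 and factors of the Rfx family switch on motile cilium genes, the latter through a promoter element called the X-box.

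Promoter sequence was looked at first, since the X-box is a known mark of these genes. RefSeq promoters on build GRCr8, from 250 bases before to 50 after the gene start, matched 42 of the 53 genes. The X-box, an inverted repeat with a spacer of up to 3 bases searched on both strands, was found in 6 of these 42 promoters (14.3%) and in 449 of all 27457 promoters (1.64%). It was present in 5 of 22 motile cilium genes, namely Cfap298, Cfap44, Cfap45, Dnai1 and Dnai2, in none of 16 primary cilium genes and in Cfap20dc of the remaining 4. Other primary cilium genes, from lists described below, did hold it. It was found in 4 of 26 promoters of the transition zone list (15.4%) and 2 of 14 of the list of other BBSome and small GTPase genes (14.3%). Stretches of 30 bases are shown for those matches that lie wholly before the start, since they show the element in genes that differ in expression in this tissue. They were chosen after the expression values were seen, run 5′ to 3′ on the strand of the gene, and have the matched letters in capitals.
Cfap298, chr11:43677592-43677621, minus strand: gggtttcgGTTGCCCGGGCAACagctactt
Cfap298, chr11:43677452-43677481, minus strand: tttgactGTTGCCCTTGGCAACagtcactt
Cfap44, chr11:69789906-69789935, minus strand: cggtgggagtggcGTTGCTGTGGCAACcgc
Dnai1, chr5:61525972-61526001, plus strand: gcctgtctGTTGCTGGGTAACcgcgtcagg
Dnai2, chr10:100258952-100258981, plus strand: cagccaggGTTGCTAGGCAACcggtaaact
Cfap20dc, chr15:18661376-18661405, plus strand: gcccctcaGTTGCCTGGGCAACggctcagc
Of these genes, Cfap298, which helps to assemble dynein arms, was well above background on all arrays, whereas Cfap44, Dnai1, Dnai2 and Cfap20dc were on none. Cfap45, whose match reaches past the start and is not shown, was well above background on all arrays too. Among the 8 genes that passed the test described next, 6 had a promoter sequence and none of those held an X-box match. A match is only a run of letters, and its absence says only that these letters are not in this window.

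Of the 53 genes, 42 were tested, and 40 of these were well above background on all 8 arrays. All 21 primary cilium genes were among the latter, but only 14 of the 26 motile cilium genes. The 11 genes not tested were Cfap107, Cfap161, Cfap276, Cfap44, Cfap70, Cfap95, Dnah1, Dnai1, Dnai2, Dnai3 and Cfap20dc. Cfap161 and Cfap276 were well above background on 2 female arrays and 1 male array each, and the other 9 on none. The outer dynein arm chains Dnai1 and Dnai2 and the inner arm heavy chain Dnah1 were thus not well above background in the cortex of either sex, while Foxj1 and 7 of the lining proteins described below were.

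Between the sexes, 8 of the 42 genes tested differed at an adjusted p below 0.05 (19%), against 8.06% of all 23425 probes tested. Of the 42 tested, 7 were called lower in males, against 4.67% of all probes tested, and 1 higher, against 3.39%. Motile cilium genes accounted for 7 of the 8, out of 16 tested, and primary cilium genes for 1 of 21. A change of at least 2-fold was seen in 2, Cfap68 and Cfap206, against 1.89% of all probes. The sexes did not overlap at all in 12 of 42 genes (18.4% of all probes), with males lower in 9 (11% of all probes) and higher in 3 (7.46% of all probes). Since Cfap206 entered the test only through its male signals, the count was repeated among probes well above background on all 8 arrays, where 7 of 40 genes passed, all lower in males, against 8.86% of 21650 probes. Whether the motile and primary groups differ from each other was not tested, and the primary group holds only Ift and Bbs genes.

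**Figure D1:**
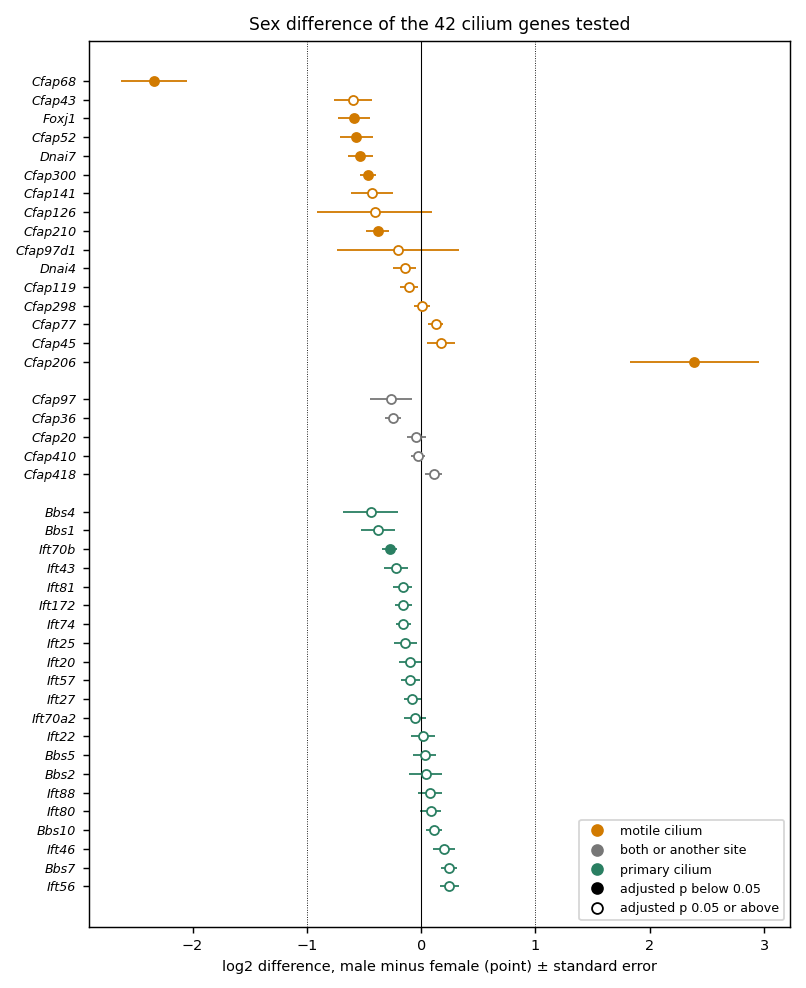
Log2 fold-change (male minus female, x axis) of the 42 genes tested, 1 row per gene, in the order motile cilium, both or another site, primary cilium. Points are fold-changes with standard errors as bars (4 rats per sex), filled where the adjusted p was below 0.05, and dotted lines mark 2-fold. The filled points lie mostly left of 0 in the motile group, with Cfap68 at -2.34 and Cfap206, whose female signals were at background, at 2.39.

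Among the motile cilium genes, Foxj1 comes first by role, as the forkhead transcription factor that directs motile ciliogenesis. Foxj1 lay at -4.79, -5.22, -5.04 and -4.82 in females 1 to 4 and at -5.26, -5.53, -5.73 and -5.69 in males 1 to 4. Every male was below every female, although male 1 missed the lowest female by only a few hundredths of a log2 unit. The log2 fold-change was -0.59 ± 0.137 (SE, n = 4 per sex, adjusted p = 0.0378). The adjusted p ranged from 0.0246 to 0.0908 over 18 other settings and was above 0.05 in 10 of them.

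Proteins lining the inside of the doublet microtubules, which stiffen the beating axoneme, were covered by 11 genes. Tests were possible for 7, and Cfap68, Cfap52 and Cfap210 were lower in males. Cfap68 lay at -1.19, -1.89, -1.53 and -2.71 in the 4 females and at -4.09, -4.35, -4.20 and -4.05 in the 4 males. The females were spread over 1.52 log2 units and the males over only 0.30, with a wide gap between them. Cfap68 was 5.06-fold lower in males (log2 fold-change -2.34 ± 0.288, adjusted p = 0.00307). This rests on 1 probe (A_64_P082495), because the other probe of Cfap68 (A_64_P082490) was well above background on no array.

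Cfap52 lay at -5.28, -5.72, -5.92 and -5.56 in females and at -6.41, -6.10, -6.15 and -6.09 in males. The sexes were separate, with male 1 the lowest of all (log2 fold-change -0.57 ± 0.143, adjusted p = 0.0484). Cfap210 lay at -4.22, -4.17, -4.01 and -4.19 in females and at -4.34, -4.47, -4.57 and -4.73 in males. Here too no values overlapped, but the difference stood at the very edge of the threshold (log2 fold-change -0.38 ± 0.0971, adjusted p = 0.04995). Each of these calls was lost in 14 of 18 other settings. The other lining proteins tested did not pass. The log2 fold-changes were -0.43 ± 0.183 for Cfap141 (adjusted p = 0.187), 0.17 for Cfap45 and 0.13 for Cfap77.

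Within each sex, Cfap126 had the widest range of the 14 motile cilium genes that were well above background on all 8 arrays. It lay at -2.12, -2.27, -1.77 and -3.70 in females and at -2.24, -3.28, -3.82 and -2.14 in males. Rats of both sexes fell into a higher and a lower range, and the mean difference of -0.41 ± 0.504 was smaller than the spread within either sex (adjusted p = 0.66).

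The dynein arms that drive the beat, together with the factors that assemble and anchor them, were represented by 9 genes, of which 4 were tested and 2 passed. Cfap300, which acts in the assembly of dynein arms in the cytoplasm, lay at -4.68, -4.62, -4.69 and -4.80 in females and at -5.10, -5.15, -5.22 and -5.18 in males. Both groups were tight and the sexes lay well apart (log2 fold-change -0.47 ± 0.0669, adjusted p = 0.006). Dnai7, an axonemal dynein intermediate chain also known as Casc1, lay at -0.65, -1.05, -0.96 and -1.03 in females and at -1.40, -1.39, -1.63 and -1.40 in males. Males 1, 2 and 4 were nearly equal and male 3 was lower, and no male reached the lowest female (log2 fold-change -0.53 ± 0.107, adjusted p = 0.0231). The call was lost in 4 of 18 other settings, and that of Cfap300 in none. The remaining pair differed little, with log2 fold-changes of 0.01 for Cfap298 and -0.15 for the inner arm gene Dnai4.

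The last 5 genes of the motile group belong to other parts of the axoneme, and 4 of them were tested. Cfap43, which helps to tether dynein to the doublets, lay at -5.03, -5.51, -5.70 and -5.82 in females and at -6.29, -6.00, -6.13 and -6.04 in males. The sexes did not overlap, yet the difference of -0.60 ± 0.167 did not pass the test (adjusted p = 0.0658). Cfap206, a protein at the base of the radial spoke, was the exception in direction. It lay at -6.87, -6.79, -6.63 and -7.52 in males, well above background on all 4 male arrays and on no female array. Measured female values were -7.87, -9.90, -10.76 and -8.84. Each female array was then set to its lowest signal that counts as well above background, or to the measured value where that was higher, as in female 1. Against these, and with the background removed as here, Cfap206 was 2.36-fold higher in males (fitted log2 fold-change 2.39 ± 0.561, adjusted p = 0.0391). As the gene met the filter only through the male arrays, where it is high, this p is not taken as support for a difference. With normexp background correction, another way of removing background, the fitted value was 0.98. That is just under 2-fold, below the 2.36-fold given above, and it no longer passed (adjusted p = 0.0517). Cfap119 and Cfap97d1 had log2 fold-changes of -0.11 and -0.20, the latter with standard error 0.533 and signals well above background on 3 arrays of each sex.

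**Figure D2:**
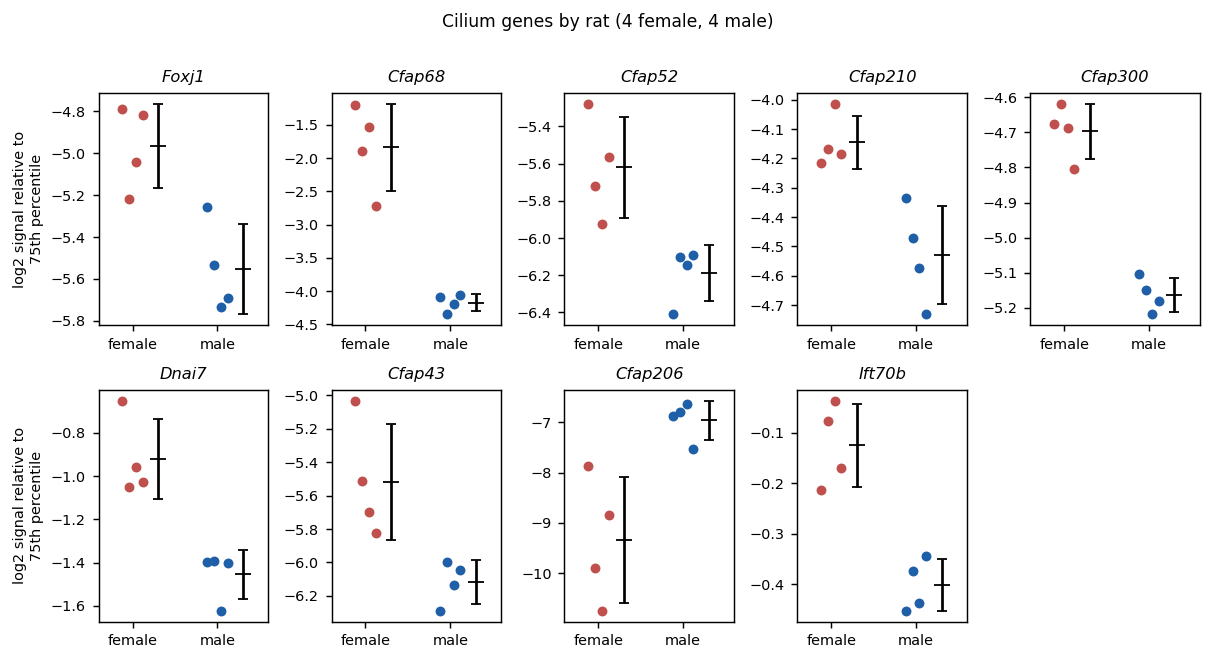
Log2 signal relative to the 75th percentile of the array (y axis, a separate scale in each panel) of 9 cilium genes in 4 female and 4 male rats. Each point is 1 rat, bars give the mean ± SD. In each of the 9 panels the sexes are separate. Males are lower in 8 panels and higher in that of Cfap206, whose female points were not well above background.

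The slide held its arrays in 2 rows, each with 2 females and 2 males. With slide row as a block, Cfap68, Cfap300, Dnai7, Foxj1 and Cfap206 still passed the adjusted p, Cfap52, Cfap210 and Ift70b did not, and Cfap43 did. Since the sexes were separate at all 9 genes, the sign within a row is fixed and only the sizes can differ. Within rows 1 and 2, the log2 difference was -1.95 and -2.73 for Cfap68, -0.54 and -0.63 for Foxj1, -0.40 and -0.54 for Cfap300, and -0.41 and -0.66 for Dnai7. The p-values measure the spread between these rats only.

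Looked at by rat, the 14 motile cilium genes on all arrays separated the sexes in their median. Of these 14 genes, 7 had no overlap of the sexes, and 6 had passed the test above. The separation thus reuses values already given and adds no support. The median of their values, each taken relative to the gene's own mean over the 8 rats, was 0.23, 0.16, 0.13 and 0.14 in females 1 to 4 and -0.04, -0.19, -0.24 and -0.19 in males 1 to 4. All females lay above all males, and male 1 came closest to the females. For the 21 primary cilium genes the same medians were 0.05, 0.04, 0.02 and -0.01 in females and 0.03, -0.05, 0.00 and -0.02 in males, and these overlapped. The median log2 fold-change was -0.42 for the 14 motile genes and -0.08 for the 21 primary genes, beside -0.05 (to 2 decimals) over all probes tested. A log2 fold-change below 0 was found for 11 of 14 motile genes (78.6%), 12 of 21 primary genes (57.1%) and 58.4% of all probes. The motile genes also varied more between rats of a sex, with a median SD over the 16 tested of 0.189 in females and 0.141 in males, against 0.0933 and 0.111 for the primary genes. Most of the 16 had lower signals than the primary genes, and Cfap206 and Cfap97d1 lay near background. The spread was not compared at equal signal.

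**Figure D3:**
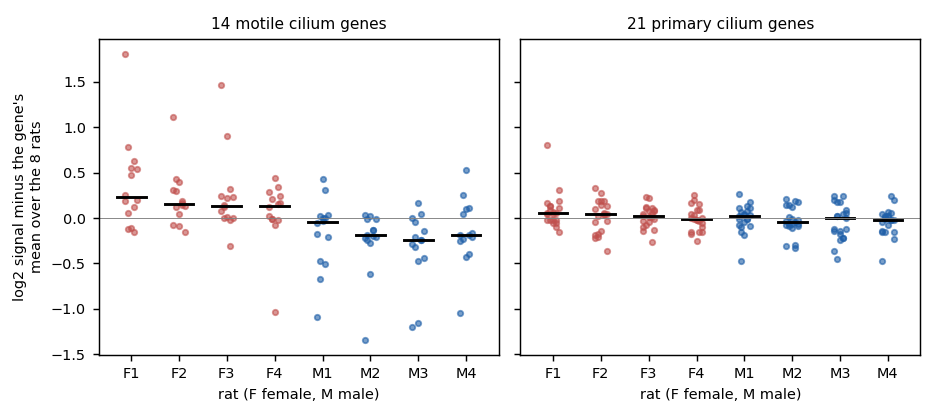
Log2 signal of each gene minus its own mean over the 8 rats (y axis), by rat (x axis, F female, M male), for the 14 motile (left) and 21 primary (right) cilium genes well above background on all 8 arrays. Points are genes, and black bars are medians over genes. The motile medians lie between 0.13 and 0.23 in females and between -0.24 and -0.04 in males, while the primary medians overlap around 0. The values are those already compared gene by gene.

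Transport genes of the primary cilium differed little. Of 14 IFT-B genes, 13 did not pass the test, and their log2 fold-changes, with that of Ift70b, ran from -0.28 to 0.25. Ift70b, also called Ttc30b, lay at -0.21, -0.08, -0.04 and -0.17 in females and at -0.45, -0.37, -0.44 and -0.34 in males. The ranges were separate and narrow, and the decrease was small, at 1.21-fold (log2 fold-change -0.28 ± 0.068, adjusted p = 0.045). It was lost in 13 of 18 other settings, among them quantile normalization. The log2 fold-change of Ift70a2, a close relative of Ift70b, was -0.05 ± 0.0949, and probes of near-identical copies may share signal. The highest IFT-B fold-change was that of Ift56 at 0.25 ± 0.0863 (adjusted p = 0.119). Ift88, whose loss causes polycystic kidneys in mice, stood at 0.08 ± 0.105, and Ift43, the only IFT-A gene with a probe, at -0.22 ± 0.107 (adjusted p = 0.239).

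None of the 5 BBSome genes passed. Bbs7 lay at -1.57, -1.45, -1.55 and -1.57 in females and at -1.39, -1.24, -1.33 and -1.22 in males. All males were above all females, but the difference of 0.24 ± 0.0681 missed the threshold (adjusted p = 0.0673). Bbs10, a chaperonin-like protein needed for BBSome assembly, likewise showed no overlap (0.11 ± 0.0683, adjusted p = 0.346). Both were picked out after their values were seen, because they and Ift70b were the 3 of 21 primary genes without overlap, a smaller share than the 18.4% of all probes. Bbs4 had the lowest fold-change of the group at -0.44 ± 0.242 (adjusted p = 0.294), and its other probe gave -0.42. For Bbs1 the probes disagreed, with -0.38 at the brighter and 0.14 at the dimmer probe. Bbs2 and Bbs5 stood at 0.04 and 0.03.

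The 5 tested genes of both or another site had log2 fold-changes between -0.26 and 0.11, and none passed. The sexes were separate only for Cfap36, an Arl3-binding protein, which lay at 0.65 to 0.70 in females and 0.31 to 0.55 in males (-0.25 ± 0.0723, adjusted p = 0.0745).

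Genes of the cilium with other symbols were taken from 9 lists, made with earlier results of these data known. They held 144 genes with a probe, of which 124 were tested. At an adjusted p below 0.05, 15 differed between the sexes (12.1%, background 8.06%), 11 lower and 4 higher in males (4.67% and 3.39% of all probes). Among genes well above background on all 8 arrays, 13 of 117 passed (11.1%), close to the 8.86% of all such probes. The 3 lists for the axoneme (dynein arm docking and assembly, radial spoke with central pair and nexin link, microtubule inner proteins) held 43 tested genes, of which 6 were lower and 1 was higher in males (4.67% and 3.39% of all probes). Their median was -0.17, beside -0.05 over all probes, and 32 of 43 (74.4%) lay below 0, beside 58.4% of all probes. The 5 lists for the primary cilium and its signalling held 75 tested genes, of which 5 were lower and 2 higher, with a median of -0.06. Their share past the adjusted p, 9.33%, was close to the 8.06% of all probes. The remaining difference was in Deup1, of the list of multiciliation regulators.

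Within the axoneme lists, the smallest adjusted p belonged to Ccdc65, a subunit of the nexin-dynein regulatory complex that links neighbouring doublets. Ccdc65 lay at -0.73, -0.67, -0.88 and -0.88 in females and at -1.57, -1.55, -1.61 and -1.69 in males. Both sexes formed tight groups (log2 fold-change -0.82 ± 0.0747, adjusted p = 0.000949). Drc3 and Drc1 of the same complex were lower in males as well, by -0.64 ± 0.149 and -0.35 ± 0.0829 on the log2 scale (adjusted p = 0.0392 and 0.0419). With quantile normalization Drc1 stood at -0.21 and did not pass. Zmynd10, a dynein arm assembly factor, lay at -5.85, -6.10, -6.00 and -6.53 in females and at -7.21, -7.04, -7.16 and -6.96 in males. All 4 males were below the lowest female (-0.97 ± 0.143, adjusted p = 0.0066). Dnal1 and Spag1, next in that list, did not pass (-0.50 and -0.31).

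Among microtubule inner proteins outside the Cfap series, 3 passed the adjusted p. Enkur lay between -6.44 and -6.20 in females and between -7.35 and -7.03 in males (-0.89 ± 0.0964, adjusted p = 0.00193). Ribc2 spread widely, at -3.10, -2.51, -4.54 and -5.74 in females and -6.31, -8.33, -9.16 and -7.66 in males, and was well above background on only 2 male arrays. Its fitted difference was -3.89 ± 0.805 (adjusted p = 0.0251). Mns1 went the other way, at -7.24 to -6.74 in females and -6.71 to -6.38 in males (0.53 ± 0.121, adjusted p = 0.0373). Deup1, which promotes centriole amplification in multiciliated cells, was also higher in males, at -8.81, -9.07, -8.12 and -7.81 in females and -7.08, -6.83, -6.41 and -7.14 in males (1.59 ± 0.292, adjusted p = 0.0161). Only 2 female arrays were well above background for it. Ribc2 and Deup1 each met the filter through the arrays of the sex where they are high. Their p-values are therefore not taken as support for a difference. With normexp background correction the log2 fold-changes were nearer 0, at 0.63 for Deup1 (adjusted p = 0.0128), -2.57 for Ribc2 (0.0268) and 0.27 for Mns1, which no longer passed (0.141). Rfx2, a relative of Rfx3 that acts on motile cilium genes, did not pass (0.13 ± 0.111, adjusted p = 0.526), nor did Gmnn, an inhibitor of DNA replication licensing (-0.12 ± 0.0685, adjusted p = 0.323).

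**Figure D4:**
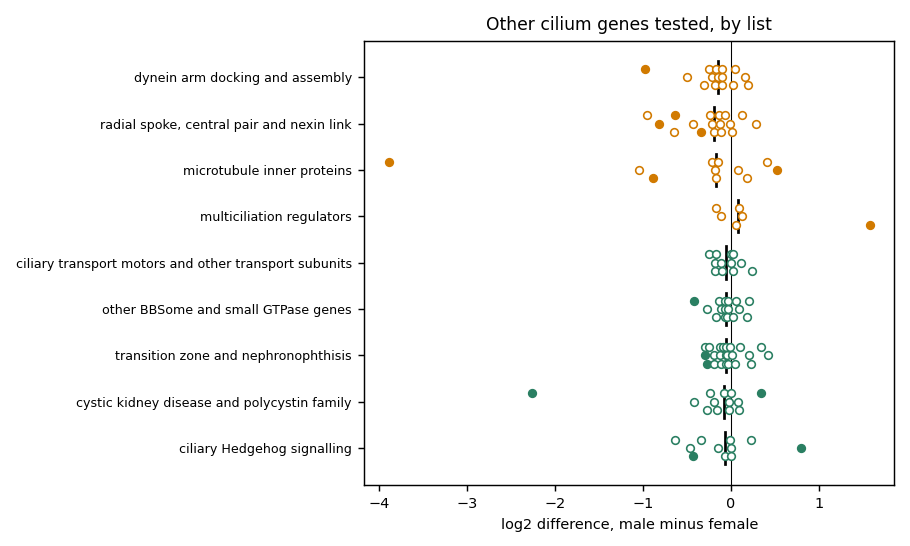
Log2 fold-change (male minus female, x axis) of the 124 tested genes of 9 other cilium lists (y axis). Each circle is 1 gene, filled where the adjusted p was below 0.05, and vertical bars are list medians. Most axoneme genes (the upper 3 lists) lie left of 0, with Ribc2 at -3.89, and the primary cilium lists (green) have medians close to 0, with Pkd2l2 at -2.26 and Shh at 0.80 as the widest calls.

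In the primary cilium lists, the largest change was in Pkd2l2, a polycystin family member. Pkd2l2 lay at -4.18, -4.63, -4.38 and -5.30 in females and at -6.58, -7.39, -6.72 and -6.84 in males. Its males were 4.81-fold lower with no overlap (log2 fold-change -2.26 ± 0.261, adjusted p = 0.00234). In Hedgehog signalling, which runs through the primary cilium, the ligand Shh was higher in males (0.80 ± 0.179, adjusted p = 0.0334). Disp1, which releases the ligand, was lower (-0.43 ± 0.0828, adjusted p = 0.0201). Shh was a dim ligand here, with a mean signal of 167 against 7949 for Ihh. The ligand Ihh had the opposite sign and did not pass (-0.63 ± 0.247, adjusted p = 0.157), and the ligand Dhh stood at 0.00. Arl3, a small GTPase that unloads lipidated cargo in the cilium, was lower in males (-0.42 ± 0.0901, adjusted p = 0.0285). Of the transition zone at the ciliary base, Iqcb1 and Tctn2 were lower by small amounts (-0.28 and -0.29, adjusted p = 0.0467 and 0.0475). No gene of the transport motors passed. The smallest adjusted p there was 0.106, for the dynein light chain Dynll1 (-0.25), before Traf3ip1 (0.24) and the retrograde motor heavy chain Dync2h1 (-0.19). Of the other genes with the smallest p of their lists, Slc41a1 (-0.29), Evc (0.23), Sec61b (-0.27), Arl6 (-0.27) and Rab3ip (0.21) did not pass either, with adjusted p of 0.059, 0.0662, 0.0716, 0.113 and 0.122.

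Markers of cells other than kidney tubules that carry motile cilia or flagella were read beside these results. All 7 named multiciliated cell markers were well above background on at least 4 arrays, and their summed level was 0.646 to 1.04 times the 75th percentile in females and 0.48 to 0.784 times in males, with overlap. Of these, Foxj1 was lower and Deup1 higher in males as given above, and Tppp3, Rsph1, Tekt4, Tekt1 and Sntn had fold-changes of -0.26, -0.43, -0.19, -0.17 and -0.20 without passing. Of 6 testis markers, the flagellar genes Akap4 and Odf1 were at background on all 8 arrays. The other 4, Prm1, Prm2, Tnp1 and Ldhc, were well above background on all 8 arrays, in females as in males. A dim signal past this mark is therefore weak evidence for a cell type. The summed level of the 6 was 0.0462 to 0.0749 in females and 0.0432 to 0.0531 in males. Ldhc was lower in males (-0.92 ± 0.192, adjusted p = 0.0255). The urothelial sum was 0.1 to 0.169 in females and 0.102 to 0.12 in males, with Upk2 at background. Upk1a, Upk1b, Upk3a and Krt5 were well above background on all 8 arrays, with log2 fold-changes from -0.605 to -0.171, and none passed. The part of these cells in the differences above was not tested.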

How the data were processed

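The deposited files held one-colour intensity values, 1 file per array, which per the file headers were made by the authors with Agilent Feature Extraction 10.7.3.1 (background-subtracted processed signals). The deposited series table held log2 values. The role of limma 3.8.2, named in the submitters' processing notes, was not given in the sources used here. From the processed intensities, log2 values minus the 75th percentile of the array were computed, spots marked as outliers were left out and spots of a probe were averaged. The filter kept a probe that was well above background on 4 or more arrays (23425 of 30367), and these were fitted with limma 3.58.1 (lmFit and eBayes, R 4.3.3), male minus female, with Benjamini-Hochberg adjustment over all of them. Accessions named 17514 probes through the RefSeq table. With 4 arrays per sex, precision is limited by the number of rats.

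Genes, lists and groups were chosen with earlier results of these data known. Values are given for every gene of the set past the adjusted p, those with an unadjusted p below 0.05 and a log2 difference of at least 0.5, those without overlap and at background in 1 sex, and Foxj1, and of the other lists every gene past the adjusted p and 2-fold and the 3 with the smallest p. Genes beyond this rule were named after their values were seen, as was the division by role within the motile and primary groups. The limma step was tested on simulated data. Alternatives were quantile normalization, the authors' log2 values, normexp background correction (offset 16, on median signals), other filters, outlier spots kept, another prior, blocks for replicate number and slide row, other probes, and leaving out each array. Promoters (GRCr8) were searched for motifs, and since the file headers name build rn4, no other coordinates were used. Protein sequences were not used here, and 1 gene counted in the lists is not reported here by name.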

Additional observations from a re-analysis of the deposited data

Results flagged for a closer look

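Of 138 groups of 4 rats (69 genes of the cilium set and its lists, 2 sexes), 8 had a rat standing apart from the other 3 by Dixon's criterion, where chance alone gives about 1 in 20 groups, or 6.9 here. In males, Cfap52 was -6.41 in male 1 against -6.15 to -6.09 in the others, Dnai7 was -1.63 in male 3 against -1.40 to -1.39, Ift20 was -0.88 in male 2 against -0.60 to -0.54, and Ift70a2 was -4.10 in male 1 against -3.93 to -3.92. Shh was -4.32 in male 2 against -5.06 to -4.99. Arl3 was 1.21 in male 3 against 1.44 to 1.47, and 1.63 in female 1 against 1.87 to 1.88. Drc1 was -7.09 in female 4 against -6.97 to -6.95. All are log2 signals relative to the array's 75th percentile.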

How the results depend on the processing

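Values were recomputed under 19 alternative settings for the 9 genes plotted by rat and the named genes of the other lists, and none of these changed direction in a setting where it was tested. Cfap68 and Cfap300 passed the adjusted p in all 18 in which each was tested, as did Ccdc65, Enkur, Zmynd10 and Pkd2l2, and Deup1 did in 17 of 17. Deup1 met the main filter through its male arrays, and with the filter on all 8 arrays it was not tested. The 8 genes of the set past the adjusted p became 4 with quantile normalization, 4 with the authors' log2 values and 3 with no filter (of 53 tested). Leaving out 1 rat left 2 to 5, with 2 without male 2 or without male 3, 3 without female 3 or male 4, 4 without female 1, 2 or 4 and 5 without male 1, while calls over all probes went from 1889 to between 1012 and 1544. The count past 2-fold went from 2 to 1 with normexp, with no filter, with the filter on all 8 arrays and with the second brightest probe, and was 1 to 2 without 1 rat. The 15 genes of the other lists became 7 with no filter and 6 to 9 without 1 rat. Foxj1 passed only without female 2 or male 1 when 1 rat was left out, Cfap206 only without female 1, Cfap52 only without female 3, Cfap210 only without male 1 and Ift70b in no such fit, and Dnai7 was lost without female 3, male 2 or male 3. Ribc2 was lost without any 1 of female 1, 2 or 3 or male 2, 3 or 4. Of the other genes, Drc1 was lost in 15 of 18 settings, Tctn2 in 11, Drc3 and Mns1 in 10 each, Arl3 in 9, Shh in 7, Disp1 in 5, and Iqcb1 in 13 of 19. The median log2 fold-change of the motile genes stayed between -0.42 and -0.26. Signal close to background limits Cfap206, Cfap97d1, Ribc2 and Deup1. Drc1, Mns1, Enkur and Zmynd10 were well above background on all 8 arrays but also dim, with mean signals of 41.2, 56.6, 57.7 and 63.4. The testis markers Prm2, Tnp1 and Ldhc stood at 37.7, 43 and 46.6. Cfap52 and Foxj1, at 100.6 and 157.6, lay below the testis marker Prm1 at 174.9.

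With the replicate number as a block, 2 genes of the set (Cfap68, Cfap300), 1 of them past 2-fold, and 8 of the other lists passed, and calls over all probes fell to 1030. Same-numbered rats shared only a number: the correlations of their deviations were 0.125, 0.043, -0.008 and 0.117, and not every rat correlated best with its own number.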

Other observations

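A shorter sequence, GTTGCC on either strand, which forms part of the X-box and overlaps its matches, was present in 16 of the 42 promoters of the set (38.1%) and in 13.1% of all 27457 promoters. It was found in 8 of 16 primary cilium genes (50%), among them Bbs1, Bbs2, Bbs5, Ift20, Ift27, Ift56, Ift81 and Ift88, and in 5 of 22 motile cilium genes (22.7%). Of the other lists, the microtubule inner proteins had it in 68.8% of promoters and the cystic kidney disease list in 6.25%. The X-box itself was found in 25% of the promoters of the microtubule inner protein list and 15.4% of the transition zone list. Its share was 14.3% in the multiciliation regulator list and likewise in the list of other BBSome and small GTPase genes. The radial spoke list had 13%, the dynein arm list 12.5% and the transport motor list 5.88%, beside 1.64% of all promoters. The cystic kidney disease and Hedgehog lists had none. These are counts of letters in windows of 300 bases.

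Female 1 had the highest signal of the 8 rats at 7 of the 16 motile cilium genes tested.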
